A study of Mus musculus with 16 samples.

Results

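The liver of HdhQ111 mice was compared with a pool of wildtype liver on 8 dye-swapped cDNA arrays, the liver arm of a series of 16 arrays that also covers brain. All 8 arrays labelled as HdhQ111 liver were used. They come from 4 males, all C57BL/6J and aged 18 weeks, with 1 copy of HdhQ111, an allele in which an expanded CAG repeat was knocked into the mouse huntingtin gene (Htt). Each mouse had 2 arrays with the dyes swapped, so the mean of a mouse's pair is 1 value and n is 4 mice. The other channel of every array held RNA pooled from the livers of 4 wildtype males of the same age. The wildtype mice are thus 1 pooled control sample whose own spread is not measured, and anything peculiar to that pool enters all 4 mice alike. The arrays belong to a wide search for phenotypes that a single copy of the allele gives. The allele sits at the endogenous locus, so every cell of the liver carries it and no promoter or Cre restricts it.

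Huntingtin is a large scaffold protein of vesicle transport, and it is made in nearly all tissues, the liver included. Its expanded form is the cause of Huntington's disease, which is known first for the loss of neurons of the striatum, while weight loss and altered metabolism are part of the disease outside the brain. The liver is built mostly of hepatocytes, which secrete plasma proteins, detoxify drugs and ammonia, make bile acids and burn fatty acids in mitochondria and peroxisomes. Many hepatocyte enzymes differ between the sexes, because the pituitary releases growth hormone in pulses in males and more steadily in females, and STAT5b carries that signal into the nucleus. Hepatocytes near the portal vein and near the central vein also do different work, the former more of the urea cycle and gluconeogenesis, the latter more of glutamine synthesis and drug metabolism.

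All values are log2 ratios, likely HdhQ111 over wildtype, so a value below 0 is called lower in HdhQ111 liver on that basis. A difference of 1 is a 2-fold change. Each array had 19686 to 20584 values for 20794 probes, and 493 ratios over 10 in size were set to missing, since they run from 16.626 to 16.851 in size while no other ratio exceeds 7.14. They were positive wherever HdhQ111 RNA was in Cy5 (235) and never positive where it was in Cy3 (258), which is the pattern of a signal missing in the same dye once ratios are turned to mutant over wildtype. Single arrays carried a large dye component. Arrays of different mice with the same dyes had Spearman's rho of 0.173 to 0.449 over probes (12 pairs). The dye-swapped arrays of a mouse had -0.313 to -0.205 (4 pairs). Dye-swapped arrays of different mice had -0.331 to -0.101 (12 pairs), a range that includes the one within a mouse. A dye effect of equal size on both arrays cancels in a mouse's mean. The means with the mutant RNA in Cy5 and in Cy3 are given beside many of the results so that the dye difference can be read. With the sign of the Cy3 arrays turned, so that the dye difference is tested instead, 26 genes passed limma's adjusted test. Gene names were taken 11 rows away from their place in the annotation table. On the liver values alone, distant probes of the same gene correlated with rho 0.083 at that offset (4558 pairs), 0.022 with no offset, and between -0.035 and 0.042 at the other offsets among the 121 tried. The arrays name no probe for Htt at that offset, so the targeted gene was not analysed here. Of 2603 genes with over 1 probe, only 1220 had all probes on 1 side of 0, so probes averaged into a gene often disagreed in sign. No intensities were used, so whether a liver marker is abundant could not be read from these ratios.

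No single gene passed the test against wildtype, given the spread between mice. In limma's test of 8802 genes, 0 passed at an adjusted p of 0.05 (0% of the genes tested), and the smallest adjusted p was 0.573. At an unadjusted p under 0.05 there were 727 genes, against 440.1 that chance gives, with 464 lower (5.27% of genes) and 263 higher (2.99%). That count fell to 346 without mouse 2 and to 400 without mouse 3. Ratios were small: the median size of a gene's mean was 0.126, the median SD over mice was 0.225, and 264 genes had a mean over 0.5 in size, of which 117 were lower. Only 10 genes exceeded 1 in size, and 3 of them were lower. The mice differed in scatter, with an interquartile range over genes of 0.531 in mouse 1, 0.374 in mouse 2, 0.305 in mouse 3 and 0.219 in mouse 4. The median over all genes was -0.030 ± 0.030 (SD, n = 4 mice), and 56.6% of genes lay below 0. By dye, that median was -0.003 with the mutant RNA labelled Cy5 and -0.055 with it labelled Cy3.

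The 20 leading genes by p did not pass (limma adjusted p = 0.573 for each). A choice by p favours genes whose mice lie close together on 1 side of 0, so that trait is no separate result. Of the 20 genes, 11 lay below 0 and 9 above, and 17 had the same sign in both dye orientations. The choice by p favours equal signs by dye too, and the share over all genes is not given here. Of the 16 with a value on all 8 arrays, 2 lay below 0 on each array and 1 above 0 on each. Several of those below 0 encode hepatocyte enzymes. Alas1, the rate-limiting enzyme of heme synthesis in liver, was at -0.77, -0.44, -0.42 and -0.63 in mice 1 to 4, a mean of -0.57 ± 0.16 (SD). All 4 mice lay below 0, and so did the means by dye (-0.40 in Cy5, -0.74 in Cy3). Inmt, a methyltransferase that acts on indole amines such as tryptamine, was at -0.55, -0.73, -0.37 and -0.59 (mean -0.56 ± 0.15), with -0.33 in Cy5 and -0.79 in Cy3. Nat8f2, of a family of acetyltransferases, was at -0.60, -0.75, -0.39 and -0.36 (mean -0.53 ± 0.18). In both genes mouse 2 was lowest, and no mouse reached 0.

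Selenbp1, which oxidises methanethiol, was at -0.48, -0.34, -0.50 and -0.69 (mean -0.50 ± 0.14). Cyp7b1, which hydroxylates oxysterols in the acidic branch of bile acid synthesis, was at -0.42, -0.51, -0.36 and -0.62 (mean -0.475 ± 0.12). Nudt7, a peroxisomal hydrolase of coenzyme A, was at -0.44, -0.52, -0.31 and -0.63 (mean -0.48 ± 0.14). Mouse 4 was the lowest of the 4 in these 3 genes, although its overall scatter was the smallest. The carboxylesterase Ces3b was at -0.43 ± 0.08, with every mouse between -0.53 and -0.35, but nearly all of that came from the Cy3 arrays (-0.81, against -0.05 in Cy5). Nudt7 was similar, with -0.91 in Cy3 and -0.04 in Cy5.

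Casp6, a caspase that cleaves huntingtin, had no value in mouse 1 and was at -1.11, -0.86 and -0.81 in mice 2 to 4 (mean -0.93 ± 0.16, n = 3). It had the lowest mean of the 20, with -0.53 in Cy5 and -1.33 in Cy3. The 2 arrays of mouse 2 differed in sign for it, at 0.308 in Cy5 and -2.525 in Cy3. Gapdh, the glycolytic enzyme, also had no value in mouse 1 and was at -0.91, -0.49 and -0.77 (mean -0.72 ± 0.21, n = 3). Its arrays disagreed within every pair, with 3 below 0 and 3 above. In mice 2 to 4 they were at 0.05, -1.94 and 1.15 in Cy5 and at -1.87, 0.95 and -2.69 in Cy3. The SD over mice does not show that disagreement. Gapdh has many near-identical pseudogene copies, and what its probe binds besides the gene itself was not tested. Zfyve1, a lipid droplet and endoplasmic reticulum protein, was at -0.44, -0.40, -0.47 and -0.29 (mean -0.40 ± 0.08) and had almost the same value in both orientations (-0.38 in Cy5, -0.43 in Cy3). The remaining gene below 0 was Crybg1, at -0.44 ± 0.11 (-0.16 in Cy5, -0.72 in Cy3). Its arrays in mouse 1 differed in sign, at 1.121 in Cy5 and -2.116 in Cy3.

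Among the genes above 0, Npb, the precursor of neuropeptide B, was at 0.93, 0.70, 0.54 and 0.64 (mean 0.70 ± 0.16), and the uncharacterised gene 1700037H04Rik was at 0.91, 0.82, 0.56 and 0.57 (mean 0.72 ± 0.18). These were the 2 genes with all 4 mice over 0.5 in size on 1 side of 0. For 1700037H04Rik this held only for the average of 2 probes that differed. The first probe had a mean of 0.33, with -0.171 in mouse 1 and 0.139 in mouse 4. The second had a mean of 1.19 and no value in mouse 2. By dye, 1700037H04Rik was at 0.29 in Cy5 and 1.14 in Cy3. Stac3, an adaptor of excitation and contraction in skeletal muscle, was at 0.52, 0.45, 0.58 and 0.57 (mean 0.53 ± 0.06), with 0.52 in Cy5 and 0.54 in Cy3. It had the least difference between dyes of the 9 genes above 0. Gtsf1l was at 0.45 ± 0.05, Gpsm3, a regulator of G-protein signalling in leukocytes, at 0.48 ± 0.11, Nudt13 at 0.50 ± 0.15 and Wdr63 at 0.63 ± 0.28. Gpsm3 and Wdr63 lay close to 0 in Cy5 (0.03 and 0.02), and Nudt13 was below 0 there (-0.10). In mouse 1 the arrays of Nudt13 were at -0.793 in Cy5 and 1.83 in Cy3, and those of Wdr63 at -0.585 and 2.555. Cpt1c, a carnitine palmitoyltransferase best known from neurons, was at 0.81 ± 0.27, and Lancl2 at 0.82 ± 0.28 (n = 3 mice each). For Cpt1c and Lancl2 the mean of the arrays with HdhQ111 RNA in Cy3 was slightly below 0 (-0.08 and -0.09). Single arrays lay far apart, which the SD over mice does not show. Cpt1c in mouse 1 was at 3.291 in Cy5 and -1.159 in Cy3. Lancl2 in mouse 2 was at 3.14 in Cy5 and -1.831 in Cy3.

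**Figure D1:**
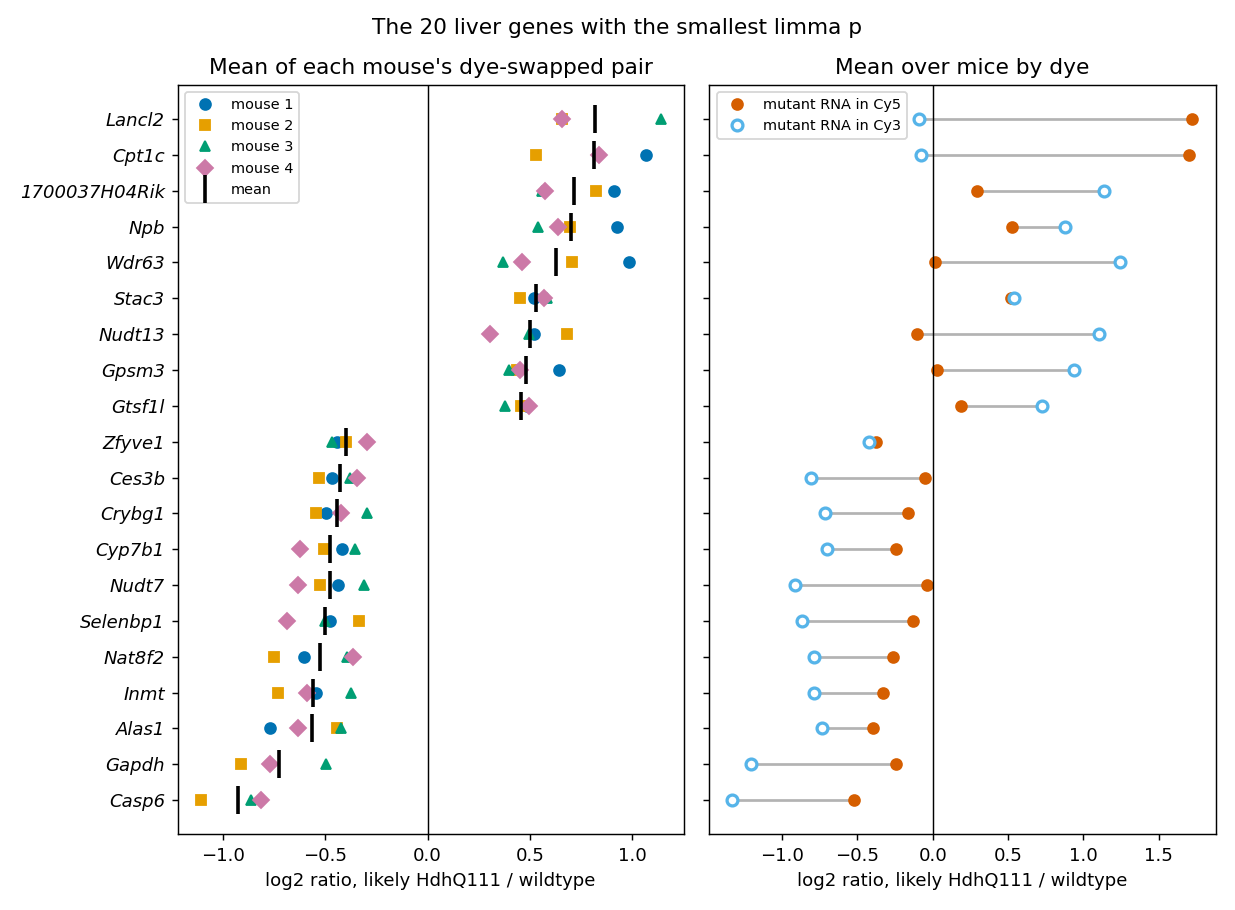
Log2 ratio (x axis, likely HdhQ111 over wildtype) of the 20 liver genes with the smallest limma p (y axis). Left, each mouse's mean over its dye-swapped pair with the mean over mice as a black bar. Right, the mean over mice by dye orientation. No mouse crosses 0 in any of the 20 genes, which their choice by p favours. The distance between the dyes ranges from very short for Stac3 (0.52 and 0.54) to long for Lancl2 (1.72 and -0.09).

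Genes that lay on the same side of 0 on all 8 liver arrays, and so in both dye orientations of every mouse, were few. Of 8252 genes with a value on all 8 arrays, 55 lay below 0 on each (0.667%) and 22 above 0 on each (0.267%). This count was made after the dye difference was seen, and the genes named from it were chosen after their values were seen. How many genes chance would place there was not computed, so the count is a description only. Among the 20 leading genes, Inmt, Cyp7b1 and Stac3 were of this kind. On single arrays Inmt ran from -0.998 to -0.047, Cyp7b1 from -0.943 to -0.039 and Stac3 from 0.313 to 0.753. Others below 0 throughout were Tnfaip2 (-0.41 ± 0.10), Ints3 of the Integrator complex (-0.36 ± 0.11), Vapa, which tethers the endoplasmic reticulum to other membranes (-0.30 ± 0.09), and the leucine aminopeptidase Lap3 (-0.26 ± 0.05).

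Also below 0 on all 8 arrays were the genes that follow. Srp19, of the signal recognition particle, was at -0.36 ± 0.27, with -0.76 in mouse 3. Rpn2, of the oligosaccharyltransferase, was at -0.23 ± 0.10, and Hnrnpk, an RNA-binding protein, at -0.24 ± 0.07. Dhodh, a mitochondrial enzyme of pyrimidine synthesis, was at -0.45 ± 0.42, with -1.07 in mouse 1 against -0.32 to -0.19 in the others. Above 0 on all 8 arrays were Nupl2, of the nuclear pore (0.46 ± 0.21), and Fbxw11, the substrate receptor of a ubiquitin ligase, which was at 0.23, 0.20, 0.23 and 0.28.

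Gene lists were described by the number of members on each side of 0 and by their median, with no test. Of 67 lists, 58 had a median below 0, as did the set of all genes, and 31 had a median below -0.1. Of those 31, 26 lay below 0 in every mouse's own median, and 8 also lay below 0 in Cy5. Across the 67 lists, 26 medians were below 0 with HdhQ111 RNA in Cy5 and 59 with it in Cy3. Most list medians were further below 0 in Cy3 than in Cy5, and the part of dye in them was not tested. Mouse 4 lay near 0 in many lists, as with -0.016 for oxidative phosphorylation, and its scatter over all genes was also the smallest. Over all genes with 4 mice, 14.2% lay below 0 in all 4 mice and 6.52% above 0 in all 4, which is the background for the counts that follow. No list had a member that passed limma's test over all genes.

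**Figure D2:**
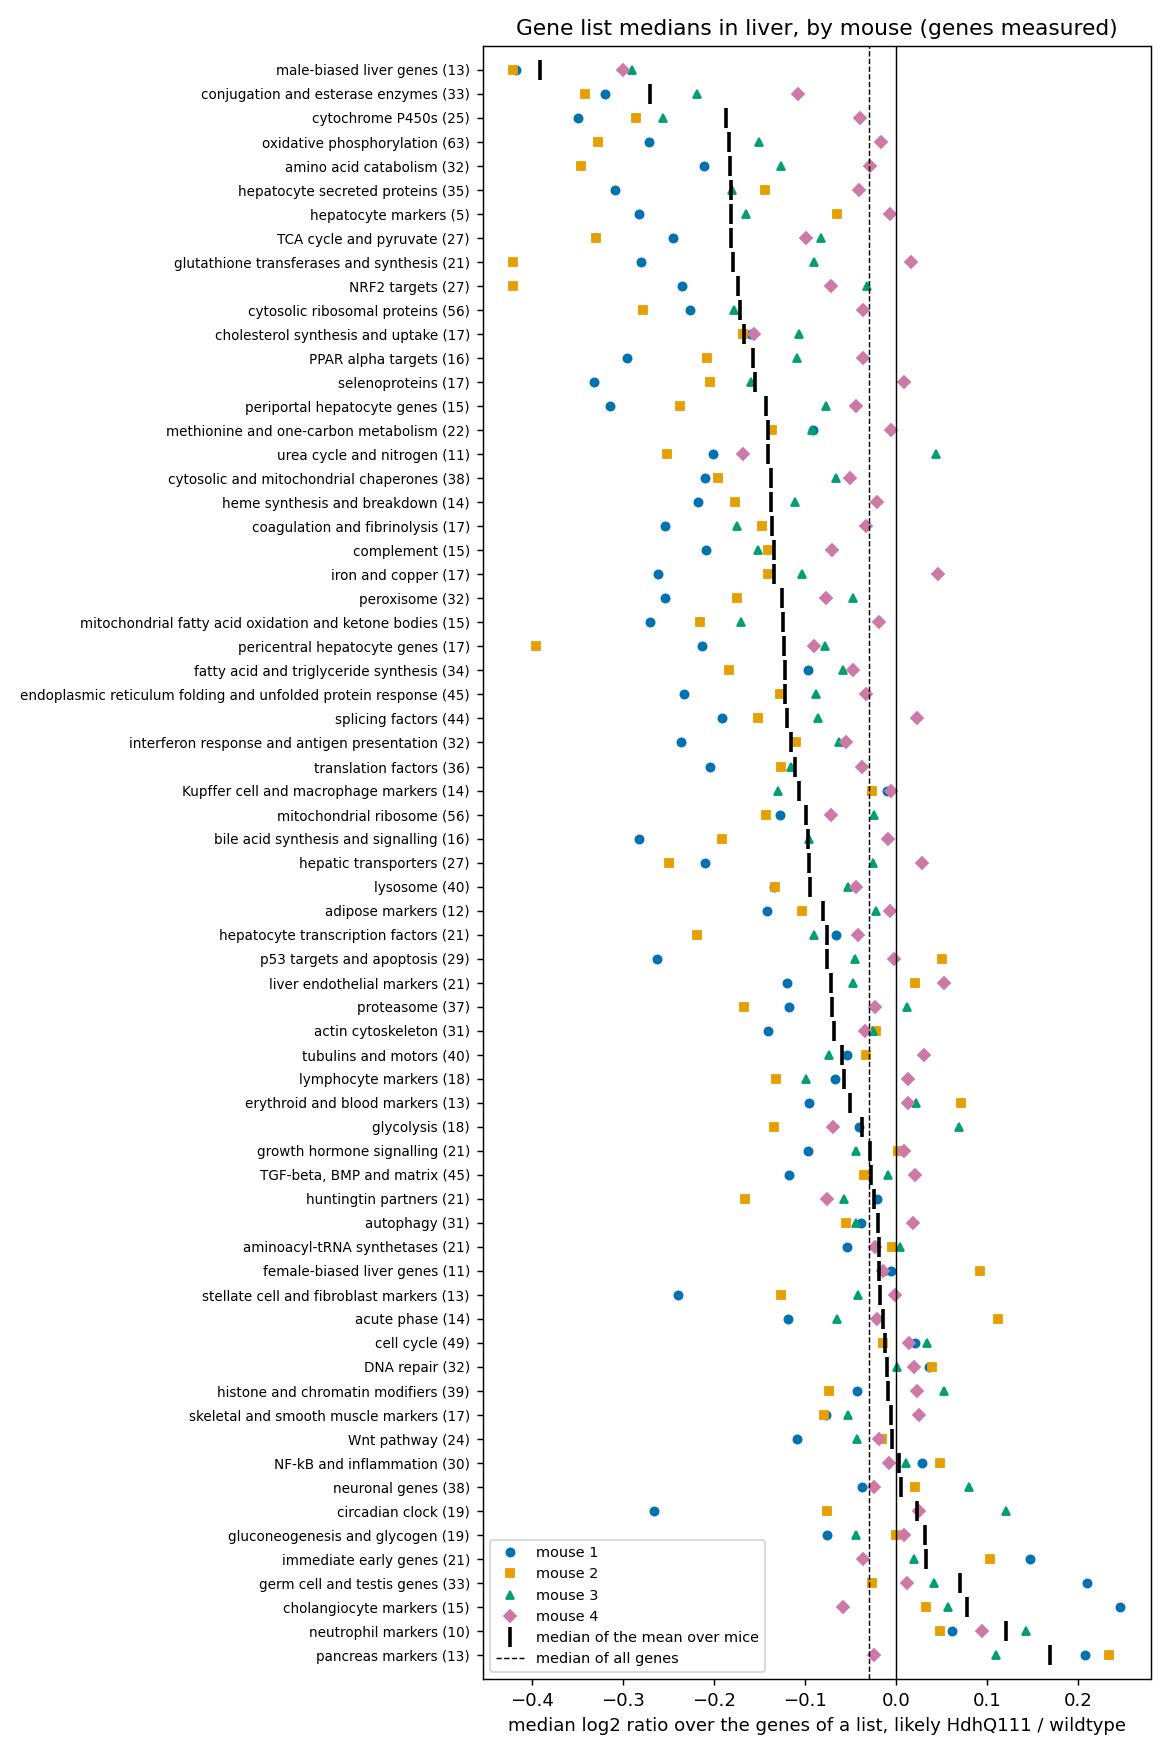
Median log2 ratio over the measured genes of each of 67 lists (x axis), by mouse, with the median of the mean over mice as a black bar; the number of genes is in parentheses. The dashed line is the median of all genes, -0.030. Male-biased liver genes lie lowest (-0.39) and pancreas markers highest (0.17).

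**Figure D3:**
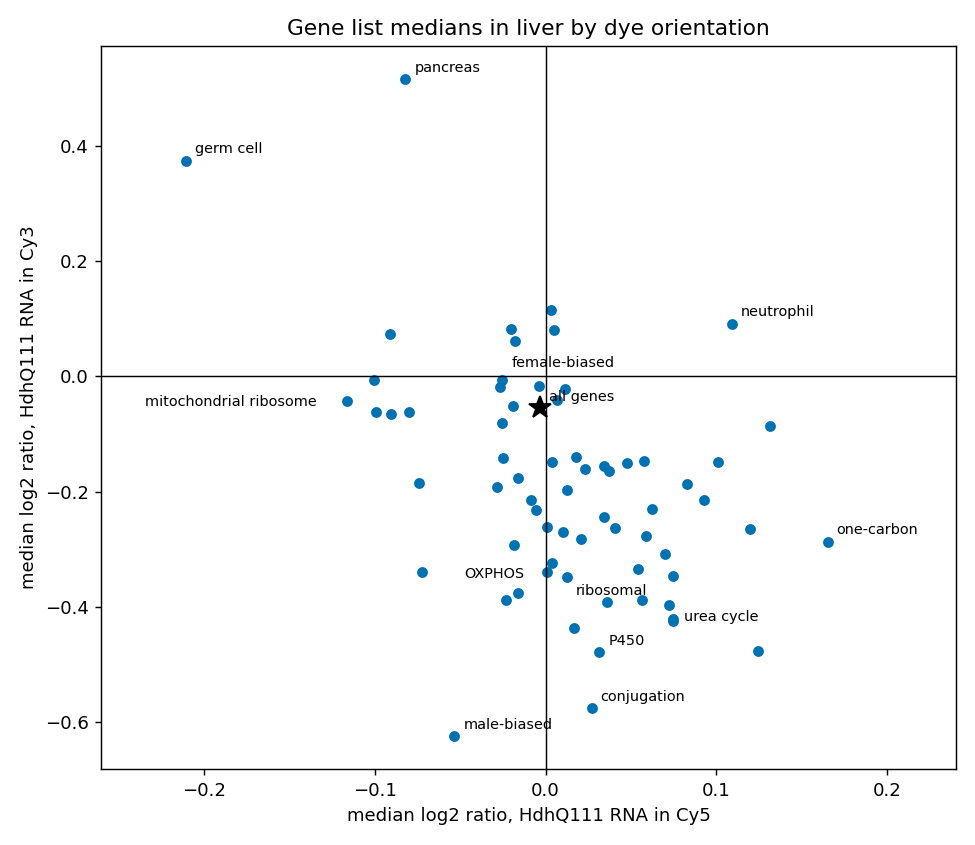
Median log2 ratio of each list with HdhQ111 RNA in Cy5 (x axis) and in Cy3 (y axis); the star is the set of all genes. Most lists lie below 0 in Cy3 and on both sides of 0 in Cy5, and the x axis spans a smaller range than the y axis.

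Genes whose liver RNA is higher in male than in female mice, a bias that growth hormone pulses maintain, had the lowest median of the 67 lists. Of 13 measured, 11 lay below 0, 8 of them in all 4 mice, and the median was -0.39. The mouse medians were -0.42, -0.42, -0.29 and -0.30, so no mouse stood apart. The median was -0.053 in Cy5 and -0.62 in Cy3. Beside Cyp7b1, Nudt7 and Ces3b, Selenbp2 was at -0.30, -0.25, -0.46 and -0.78 (mean -0.45 ± 0.24), and Cyp2d9, a P450 typical of male mouse liver, at -0.43, -0.64, -0.26 and -0.12 (mean -0.36 ± 0.22). Both lay below 0 in either orientation (Selenbp2 -0.23 and -0.67, Cyp2d9 -0.10 and -0.62). Cspg5 was the main exception, at 0.38 ± 0.33. Lower values of this list in these samples were known before this description was made, so its count is no independent support.

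Female-biased genes and growth hormone signalling lay near the median of all genes. Of 11 female-biased genes 7 lay below 0, with a median of -0.018, and 1 of the 10 with 4 mice lay below 0 in all of them. Of 21 growth hormone signalling genes 12 lay below 0, with a median of -0.029. Within that list, Bcl6, a repressor that opposes STAT5 at female-biased genes, was at -1.11, -0.45, -0.29 and -0.05 (mean -0.48 ± 0.45), which is a wide spread set by mouse 1. Cish, a feedback inhibitor that STAT5 induces, was at -0.27, -0.07, -0.25 and -0.20 (mean -0.20 ± 0.09). Stat5b itself was at 0.25, 0.56, 0.24 and 0.27 (mean 0.33 ± 0.16). Its value came from the Cy5 arrays (0.70), and on the Cy3 arrays it was -0.04.

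**Figure D4:**
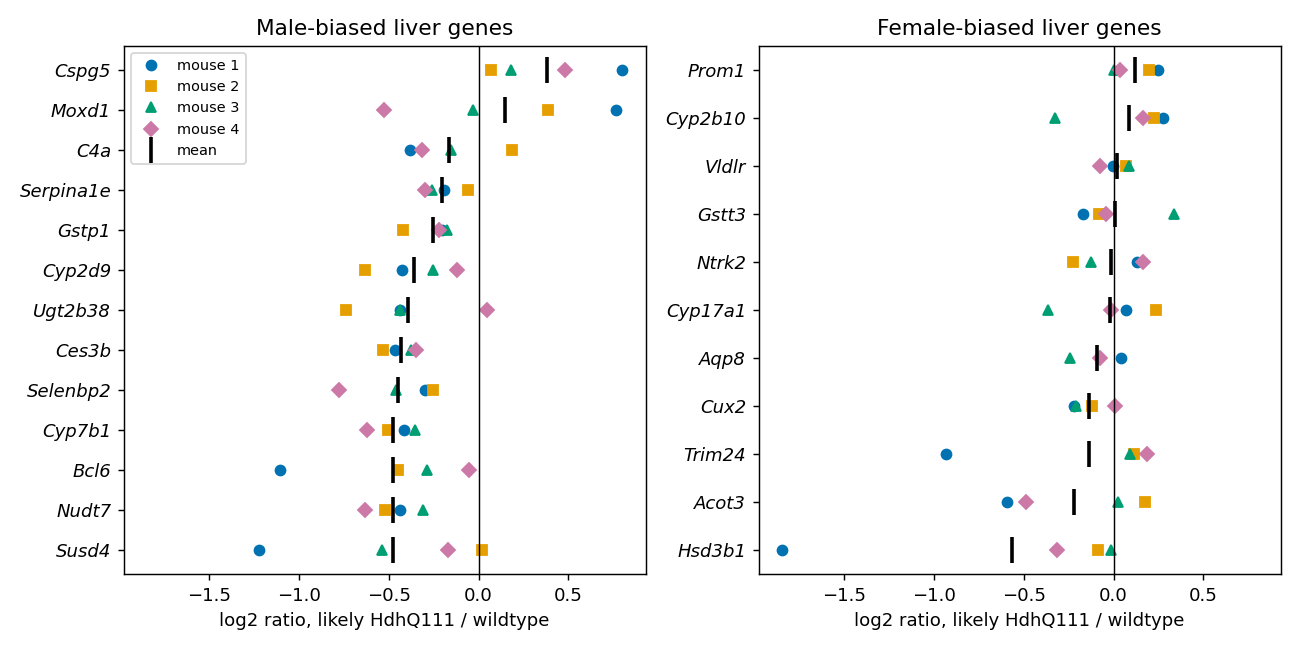
Log2 ratio (x axis, likely HdhQ111 over wildtype) of the measured male-biased (left) and female-biased (right) liver genes, by mouse, with the mean as a black bar. Of the male-biased genes 11 of 13 have a mean below 0, with Cspg5 and Moxd1 above it, and the female-biased genes scatter around 0.

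Since the male-biased genes lay low together, their RefSeq promoters (GRCm38.p6, 250 bases before to 50 after the start, the first start listed for a gene) were searched on both strands for the STAT-type motif TTCNNNGAA and the HNF1-type letters GTTAAT, after STAT5, which carries the growth hormone signal, and HNF1, a factor of hepatocytes. A promoter was listed for 10 of the 13. The STAT-type letters stood in 2 of these 10 (20%), against 6.81% of 7111 promoters of all measured genes, and GTTAAT in 2 of 10, against 4.36%. In the promoters of 10 female-biased genes each stood in 1 (10%). These shares are a description and no test was made. The male-biased promoters that hold either motif are shown because they carry those letters, which are in capitals. Bcl6 lies on the minus strand at chr16:23988803-23989102, Moxd1 on the plus strand at chr10:24223267-24223566, Ces3b on the plus strand at chr8:105083505-105083804 and Serpina1e on the minus strand at chr12:103956848-103957147.
Bcl6: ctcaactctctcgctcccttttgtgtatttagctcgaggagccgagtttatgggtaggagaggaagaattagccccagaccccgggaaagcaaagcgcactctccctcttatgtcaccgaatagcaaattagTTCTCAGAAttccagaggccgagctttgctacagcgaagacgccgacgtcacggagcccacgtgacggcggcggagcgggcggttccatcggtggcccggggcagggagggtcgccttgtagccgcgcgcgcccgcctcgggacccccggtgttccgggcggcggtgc
Moxd1: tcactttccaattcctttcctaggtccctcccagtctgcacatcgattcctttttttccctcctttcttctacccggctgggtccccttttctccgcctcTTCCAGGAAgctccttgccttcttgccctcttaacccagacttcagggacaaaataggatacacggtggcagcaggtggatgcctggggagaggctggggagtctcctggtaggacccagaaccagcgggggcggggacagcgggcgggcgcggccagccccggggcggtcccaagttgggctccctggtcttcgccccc
Ces3b: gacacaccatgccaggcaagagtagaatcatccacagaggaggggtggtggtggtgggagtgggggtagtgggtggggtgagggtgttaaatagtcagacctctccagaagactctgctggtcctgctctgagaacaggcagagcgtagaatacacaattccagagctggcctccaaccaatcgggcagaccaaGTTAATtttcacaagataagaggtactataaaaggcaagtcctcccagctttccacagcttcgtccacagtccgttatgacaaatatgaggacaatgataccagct
Serpina1e: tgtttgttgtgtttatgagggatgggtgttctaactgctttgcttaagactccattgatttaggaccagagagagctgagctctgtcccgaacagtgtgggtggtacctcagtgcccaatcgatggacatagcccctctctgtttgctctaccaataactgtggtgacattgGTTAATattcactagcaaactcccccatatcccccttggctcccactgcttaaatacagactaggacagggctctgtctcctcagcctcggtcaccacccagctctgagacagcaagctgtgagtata
The STAT-type letters are in the first pair of promoters and GTTAAT in the second. Their genes had means of -0.48 (Bcl6), 0.15 (Moxd1), -0.43 (Ces3b) and -0.20 (Serpina1e), so the gene with the highest value of the 4 also holds the STAT-type letters.

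Enzymes of drug metabolism lay below 0 more than most lists. Of 33 conjugation and esterase enzymes 29 lay below 0, with a median of -0.27 (0.027 in Cy5, -0.575 in Cy3), and 13 of the 31 with 4 mice lay below 0 in all of them. Inmt, Selenbp1, Nat8f2 and Ces3b lead this list. Of 25 cytochrome P450 and partner genes 21 lay below 0, with a median of -0.19 (0.032 in Cy5, -0.48 in Cy3). A pair of genes that pass electrons to P450s was among them. Cyb5r3, cytochrome b5 reductase, was at -0.54, -0.50, -0.38 and -0.24 (mean -0.42 ± 0.13), and its partner Cyb5a was at -0.41, -0.42, -0.18 and -0.21 (mean -0.31 ± 0.13). Both lay below 0 in either orientation, Cyb5r3 at -0.28 and -0.55, and Cyb5a at -0.13 and -0.48.

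Glutathione and antioxidant genes followed the same pattern. Of 21 glutathione genes 17 lay below 0 (median -0.18; -0.072 in Cy5, -0.34 in Cy3), and of 27 NRF2 targets 22 did (median -0.17; -0.023 in Cy5, -0.39 in Cy3). Mouse 2 had the lowest median in both lists, at -0.42, and mouse 4 lay at 0.017 in the former. The glutathione transferase Gsta3 was at -0.38 ± 0.18, superoxide dismutase Sod1 at -0.36 ± 0.15 and Gpx4, which reduces lipid hydroperoxides, at -0.33 ± 0.17. Of these Gpx4 lay below 0 in both orientations (-0.12 and -0.53), Gsta3 was at -0.02 in Cy5, and Sod1 was at 0.04 there. Against the list, the microsomal transferase Mgst2 was at 0.42 ± 0.44, and Hmox1, the inducible heme oxygenase and an NRF2 target, was at 0.46, 0.25, 0.38 and -0.02 (mean 0.27 ± 0.21).

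Heme synthesis and breakdown genes had 9 of 14 below 0 and a median of -0.14 (0.00075 in Cy5, -0.26 in Cy3). Beside Alas1, Glrx5, a mitochondrial glutaredoxin that heme and iron-sulfur cluster assembly need, was at -0.39, -0.48, -0.23 and -0.21 (mean -0.33 ± 0.13). Glrx5 was lower in Cy5 (-0.43) than in Cy3 (-0.23), the reverse of the list. Hmox1, which breaks heme down, had the opposite sign. Of 17 genes of selenoproteins and their synthesis 13 lay below 0 (median -0.15), and Sephs2, which makes the selenium donor, was at -0.33, -0.53, -0.33 and -0.17. Sephs2 lay below 0 on all 8 arrays, with -0.33 in Cy5 and -0.36 in Cy3. The iron hormone hepcidin, Hamp, was at -0.91, -1.26, -0.35 and 0.17 (mean -0.59 ± 0.63), and its mice lay on both sides of 0.

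Amino acid and nitrogen metabolism lay below 0 in most members. Of 32 amino acid catabolism genes 28 lay below 0 (median -0.18; 0.036 in Cy5, -0.39 in Cy3), and all 11 urea cycle and nitrogen genes did (median -0.14; 0.075 in Cy5, -0.43 in Cy3), although their median in mouse 3 was 0.044. Gamt, which makes creatine from guanidinoacetate, was at -0.26, -0.41, -0.33 and -0.67 (mean -0.42 ± 0.18). Gcdh, of lysine breakdown, was at -0.36 ± 0.14, and Asl, argininosuccinate lyase, at -0.36 ± 0.21, with mice between -0.62 and -0.15. The 15 periportal genes had a median of -0.14 with 12 below 0. The 17 pericentral genes had a median of -0.12 with 16 below 0, and the difference between the lists was not tested. By dye, the periportal and pericentral medians were 0.0745 and 0.056 in Cy5 and -0.35 and -0.39 in Cy3. Of the pericentral genes, Aldh1a1, a retinaldehyde dehydrogenase, was at -0.51, -0.74, -0.12 and -0.33 (mean -0.43 ± 0.26), with -0.20 in Cy5 and -0.65 in Cy3. Rgn (regucalcin) was at -0.30 ± 0.17, but at 0.08 in Cy5.

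Mitochondrial energy genes lay below 0 by small amounts. Of 63 oxidative phosphorylation genes 57 lay below 0 (median -0.18; 0.00075 in Cy5, -0.34 in Cy3), and 27 of the 62 with 4 mice lay below 0 in all 4. Of 27 genes of the TCA cycle and pyruvate 24 lay below 0 (median -0.18; -0.016 in Cy5, -0.38 in Cy3). The mouse medians of the TCA list were -0.245, -0.33, -0.082 and -0.099, so mouse 2 was lowest. Sdhb, of complex II and the TCA cycle, was at -0.34, -0.51, -0.12 and -0.30 (-0.10 in Cy5, -0.53 in Cy3). Cyc1, cytochrome c1 of complex III, was at -0.35, -0.41, -0.31 and -0.08 (-0.11 in Cy5, -0.47 in Cy3). In brain, where the same mice were compared with a brain pool, the median of the oxidative phosphorylation list was 0.097, with the mice on both sides of 0 (-0.12, 0.071, 0.36 and 0.0995).

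Fatty acid oxidation in mitochondria and in peroxisomes gave similar values. Of 15 mitochondrial genes 14 lay below 0 (median -0.12; 0.0038 in Cy5, -0.32 in Cy3), and of 32 peroxisomal genes 26 did (median -0.13; -0.029 in Cy5, -0.19 in Cy3). Hadha, the trifunctional protein's alpha subunit, had a narrow spread, at -0.23, -0.22, -0.19 and -0.29, and lay below 0 in both orientations (-0.15 and -0.32). Ephx2, an epoxide hydrolase found partly in peroxisomes, lay below 0 on all 8 arrays (mean -0.36 ± 0.19). Scp2, a thiolase and sterol carrier, was at -0.30 ± 0.14, but at 0.05 in Cy5. Of 16 PPAR alpha targets 11 lay below 0 (median -0.16; 0.054 in Cy5, -0.33 in Cy3). Creb3l3, a hepatocyte factor that works with PPAR alpha in fasting, was at -0.46, -0.46, -0.16 and -0.33, and Ppara at -0.37, -0.32, -0.09 and -0.14. Ppara was at 0.005 in Cy5 and -0.47 in Cy3.

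Sterol and triglyceride genes had members at both ends. Of 17 cholesterol genes 14 lay below 0, with a median of -0.17 and mouse medians between -0.17 and -0.11. By dye, the median was 0.016 in Cy5 and -0.44 in Cy3. Fdps, which makes farnesyl diphosphate, was at -0.30, -0.88, -0.39 and -1.05 (mean -0.66 ± 0.37; -0.31 in Cy5, -0.998 in Cy3). Pmvk, a kinase earlier in the mevalonate pathway, was at 0.36 ± 0.38 with mice from -0.0025 to 0.87, and at -0.14 in Cy5. Of 34 genes of fatty acid and triglyceride synthesis and turnover 24 lay below 0 (median -0.12). Pnpla2, the adipose triglyceride lipase, was above 0 in all mice, at 0.83, 0.56, 0.18 and 0.40 (mean 0.49 ± 0.28; 0.14 in Cy5, 0.85 in Cy3). Bile acid genes had 12 of 16 below 0 and a median of -0.097, and beside Cyp7b1, Cyp27a1, which starts the acidic branch, was at -0.30 ± 0.20.

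Plasma proteins made by hepatocytes were mostly below 0. Of 35 secreted proteins 31 lay below 0 (median -0.18; 0.075 in Cy5, -0.42 in Cy3), of 17 coagulation genes 13 (median -0.14; 0.070 and -0.31) and of 15 complement genes 13 (median -0.13; -0.019 and -0.29). F7, clotting factor VII, was at -0.22, -0.33, -0.46 and -0.20 and was lower in Cy5 (-0.40) than in Cy3 (-0.20). Prothrombin, F2, was at -0.36, -0.49, -0.12 and -0.15 (-0.15 in Cy5, -0.41 in Cy3). The mannose-binding lectin Mbl2 was at -0.49, -0.28, -0.18 and -0.16, and factor B, Cfb, at -0.47, -0.18, -0.33 and -0.06 with almost equal values by dye (-0.23 and -0.29). The antitrypsin gene Serpina1b (-0.29 ± 0.10) and Igfbp4 (-0.39 ± 0.23) lay at or above 0 in Cy5, at 0.14 and 0.007. Igfbp1, which insulin represses, was at 0.30, 1.09, -0.16 and 0.04. Acute phase genes split evenly, with 7 of 14 below 0 and a median of -0.014.

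Most protein synthesis genes lay below 0, in the cytosol and in mitochondria. Of 56 cytosolic ribosomal proteins 51 lay below 0 (median -0.17; 0.013 in Cy5, -0.35 in Cy3), and 31 of the 56 lay below 0 in all 4 mice. Rps13 was at -0.23, -0.30, -0.23 and -0.27, below 0 on all 8 arrays, with -0.23 in Cy5 and -0.28 in Cy3. Rpl8 was at -0.27, -0.52, -0.41 and -0.63. Ribosomal protein genes have many pseudogene copies, and cross-hybridisation was not tested. Of 56 mitochondrial ribosome genes 41 lay below 0 (median -0.099), and this list lay lower in Cy5 (-0.12) than in Cy3 (-0.042). Mrpl15, of its large subunit, was below 0 on all 8 arrays (-0.31 ± 0.09). Of 36 translation factors 30 lay below 0 (median -0.11), including Eif3h at -0.25 ± 0.11 and Eif3i at -0.29 ± 0.18. The median of this list was 0.062 in Cy5 and -0.23 in Cy3.

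Of 38 chaperones 31 lay below 0 (median -0.14; -0.074 in Cy5, -0.18 in Cy3), with the chaperonin subunit Cct5 at -0.46, -0.29, -0.44 and -0.18. Of 37 proteasome genes 25 lay below 0 (median -0.070). The immunoproteasome subunit Psmb10 was at -0.29, -0.26, -0.31 and -0.14, and the constitutive subunit Psmb3 at -0.26, -0.31, -0.31 and -0.09. Both lay below 0 on all 8 arrays. Autophagy genes had 17 of 31 below 0 and a median of -0.019. Of 21 huntingtin partners 13 lay below 0 and the median was -0.023, near that of all genes. Casp6 and Gapdh, described above, are 2 of these partners.

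Immune and stress lists were mixed. Of 32 genes of interferon response and antigen presentation 25 lay below 0 (median -0.12; -0.0056 in Cy5, -0.23 in Cy3). Tap1, the peptide transporter of antigen presentation, was at -0.19, -0.68, -0.41 and -1.15 (mean -0.61 ± 0.41; -0.40 in Cy5, -0.81 in Cy3). Irf9, a transcription factor of the interferon response, lay below 0 on all 8 arrays, with mice at -0.86, -0.12, -0.53 and -0.32. The antiviral gene Rsad2 was instead at 0.37, 0.23, 0.33 and 0.21, and Irf8, a factor of myeloid cells, at 0.09, 0.43, 0.34 and 0.29. Of 30 NF-kB and inflammation genes 15 lay below 0. Nfkbia, the inhibitor that NF-kB itself induces, had a narrow spread at 0.38, 0.28, 0.37 and 0.43 (mean 0.37 ± 0.06; 0.27 in Cy5, 0.46 in Cy3).

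Of 19 clock genes 9 lay below 0 and the median was 0.024. Per2, a repressor of the clock, lay below 0 on all 8 arrays, with mice at -0.60, -0.59, -0.18 and -0.22. Tef, a clock output factor, was at -0.52, -0.71, -0.15 and -0.18, so mice 1 and 2 were the lower pair for both genes. The hours at which the livers were taken are not given in the sources used here. Among immediate early genes, 8 of 21 below 0, the nuclear receptor Nr4a3 was at 0.89, 0.48, 0.33 and -0.02. Of 29 genes of p53 targets and apoptosis 18 lay below 0 (median -0.075), with mouse medians of -0.26, 0.050, -0.045 and -0.002. Among them the p53 target Phlda3 was at 0.37 ± 0.18 (0.51 in Cy5, 0.23 in Cy3). Of 39 chromatin genes 21 lay below 0 (median -0.0086), with the histone methyltransferase Ehmt1 at 0.36 ± 0.16 and Smarcb1, a core subunit of the SWI/SNF remodeller, at -1.04, -0.28 and -1.24 in mice 2 to 4.

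Of 22 genes of methionine and one-carbon metabolism 14 lay below 0 (median -0.14), of 17 iron and copper genes 12 (median -0.13), and of 27 hepatic transporters 22 (median -0.095). Their medians were 0.17, 0.0725 and -0.016 in Cy5 and -0.29, -0.40 and -0.18 in Cy3. Hepatocyte transcription factors had 16 of 21 below 0 (median -0.075; 0.12 in Cy5, -0.27 in Cy3). Among lists of cell machinery, folding and stress in the endoplasmic reticulum had 37 of 45 below 0 (median -0.12), splicing factors 37 of 44 (median -0.12) and lysosome genes 35 of 40 (median -0.095). By dye, these medians were 0.0105, 0.041 and 0.059 in Cy5 and -0.27, -0.26 and -0.28 in Cy3. Glycolysis had 12 of 18 below 0 (median -0.037), whereas gluconeogenesis and glycogen had 8 of 19 and a median of 0.032. Cell cycle (median -0.012), DNA repair (-0.0099), Wnt (-0.0044), TGF-beta and matrix (-0.028), aminoacyl-tRNA synthetases (-0.018) and neuronal genes (0.0056) lay within 0.05 of 0, while the actin cytoskeleton was at -0.068 and tubulins and motors at -0.059. Germ cell and testis genes had 22 of 33 above 0 (median 0.071), with -0.21 in Cy5 and 0.37 in Cy3.

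The make-up of the samples was examined through markers of other cells, since fewer cells of a type and less RNA per cell cannot be told apart in whole tissue. All 5 hepatocyte markers measured lay below 0 (median -0.18; 0.12 in Cy5, -0.48 in Cy3), among them albumin, Alb, at -0.005 ± 0.07, transthyretin, Ttr, at -0.18 ± 0.17, and Hnf4a at -0.03 ± 0.33. Kupffer cell and macrophage markers had 9 of 14 below 0 and 5 above (median -0.11), with means from -0.62 to 0.25 and Cd163 at -0.16 ± 0.14. Endothelial markers had 13 of 21 below 0 and 8 above (median -0.071), with means from -0.57 to 0.23. Cd34 was at -0.62, -0.95, -0.59 and -0.12 with equal signs by dye (-0.52 and -0.62), and the receptor Kdr was at -0.24 ± 0.13. Stellate cell markers had 7 of 13 below 0 and 6 above (median -0.018), with means from -0.31 to 0.20. The lowest, desmin, Des, was at -0.38, -0.31, -0.36 and -0.17, almost all of it from Cy3 (-0.60, against -0.01 in Cy5).

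Lymphocyte markers had 9 of 18 below 0 and 9 above (median -0.057), from Cd8b1 at -0.35 ± 0.33 to a highest mean of 0.895. Adipose markers had 9 of 12 below 0 (median -0.080). In the adipose list Car3 was at -0.29 ± 0.12 and at 0.003 in Cy5. Whether Car3 reads fat or liver cells here was not tested. Adipoq, a defining marker of fat, was instead at -0.33, 0.20, 0.57 and 0.06 (mean 0.12). Erythroid and blood genes had 7 of 13 below 0 (median -0.051), and alpha globin, Hba-a1, was at -0.15, -0.69, -0.47 and -1.75. Neutrophil markers had 9 of 10 above 0 (median 0.12; 0.11 in Cy5, 0.091 in Cy3). Their highest member, S100a8, was at 2.44, 0.64, 0.17 and 0.89, with -1.02 in Cy5 and 3.08 in Cy3, while its partner S100a9 was at 0.008 ± 0.10 and Mmp8 at -0.37 ± 0.30. Pancreas markers had 10 of 13 above 0 (median 0.17; -0.082 in Cy5, 0.52 in Cy3), and glucagon, Gcg, was at -0.03, 1.99, 0.76 and 1.05. Cholangiocyte markers had 9 of 15 above 0 (median 0.078). Cldn4 was at 0.70 ± 0.35 (n = 3) but at -0.07 in Cy3, and Krt19, a defining marker, was at 0.01 ± 0.24. Skeletal and smooth muscle markers had 9 of 17 below 0 and a median of -0.005. The part of cell make-up in the lists of hepatocyte enzymes was not tested.

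Liver was set against brain of the same mice through the difference of the log2 ratios. Of 8474 genes, 2 passed limma's test (0.0236%), and both rest on brain values. Prl, prolactin, differed by 4.52 (adjusted p = 0.000118), with 0.24 ± 0.32 in liver and -4.28 in brain. Pomc, the precursor of corticotropin, differed by 3.05 (adjusted p = 0.0136), with 0.13, 1.11, 0.02 and -0.06 in the liver of mice 1 to 4 and -2.75 in brain. Both genes are pituitary hormones in the main, and neither differed from 0 in liver (limma adjusted p of at least 0.573). Prl has brain values in 3 mice and is not tested without mouse 2, 3 or 4. Without mouse 1 or mouse 2, 1 gene passed, and without mouse 3 or mouse 4, 0 did (limma).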

How the data were processed

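Liver RNA of 4 HdhQ111 mice was hybridised against a wildtype pool on 8 dye-swapped arrays. The authors deposited normalized log2 ratios per probe (base 2 assumed). How arrays were scanned, corrected for background and normalized is not given in the sources used here. Ratios over 10 in size were set to missing. A mouse's value was the mean of its pair, both arrays needed. Probes with at least 3 mice were averaged per gene. The test was limma 3.58.1 (R 4.3.3) of the mean against 0, two-sided, with Benjamini-Hochberg adjustment at 0.05. In the annotation, 12771 probes have exactly 1 symbol, all matched to a current gene, and 0 have several. With names moved by 11 rows, 12760 value rows carry one, for 9026 genes. No source states that shift or the sign of the ratios.

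The genes named are the 20 with the smallest p, those with all 4 mice over 0.5 on 1 side, up to 4 members of a list with the smallest p, up to 2 of the opposite sign, and defining markers of cell types. The lists and the comparison itself were chosen with earlier results of these data known. Every pair of tissues came from the same mouse, per the labels. Deviations of a mouse from the tissue means had Spearman's rho of 0.051, -0.009, 0.075 and 0.035 between its own brain and liver. Alternatives were the large ratios kept, arrays centred or scaled, 1 array of a pair being enough, a dye term over all 8 arrays, each dye alone, 4 mice required, a robust prior, single probes, names not moved, the mouse as a block across tissues, and each mouse left out. Array weights and a turned sign of the Cy3 arrays were added after the data were seen. Scripts were tested on simulated data. The precision is limited by the 4 mice and by the 1 wildtype pool, whose own spread is not measured.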

Additional observations from a re-analysis of the deposited data

Results flagged for a closer look

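Some values had 1 mouse apart from the other 3 (95 genes and 67 lists were examined, and chance marks about 1 in 20). Stat5b was at 0.563 in mouse 2 against 0.24 to 0.27 in the others. Hnrnpk was at -0.131 in mouse 3 against -0.29 to -0.27, Rpn2 at -0.37 in mouse 1 against -0.18 to -0.17, and Dhodh at -1.07 in mouse 1 against -0.32 to -0.19. Pomc was at 1.11 in mouse 2 against -0.06 to 0.13. The median of female-biased genes was 0.092 in mouse 2 against -0.015 to -0.005, that of the actin cytoskeleton -0.14 in mouse 1 against -0.034 to -0.021, and that of Kupffer cell and macrophage markers -0.129 in mouse 3 against -0.026 to -0.005.

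A pair of the 67 lists lay below 0 in the liver of all 4 mice and above 0 in the brain of all 4. Some of these medians were close to 0. For bile acid genes the liver median of mouse 4 was -0.009 and the brain median of mouse 1 was 0.001. The liver medians of Kupffer cell and macrophage markers were -0.010, -0.026, -0.129 and -0.005 in mice 1 to 4. The liver median minus the brain median was -0.15 for bile acid genes and -0.23 for Kupffer cell and macrophage markers, a difference that was not tested. The liver minus brain difference passed limma's test for Prl (4.52) and Pomc (3.05), and both rest on the brain values.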

How the results depend on the processing

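No gene passed limma's adjusted test under the alternatives run, apart from the turned sign described here. The count at an unadjusted p under 0.05, 727 genes, was 1835 with the Cy3 arrays only. Leaving out a mouse gave 346 genes (mouse 2), 400 (mouse 3), 576 (mouse 1) or 726 (mouse 4). Turning the sign of the Cy3 arrays, a setting added after the data were seen that leaves the dye component in place of the genotype ratio, gave 26 genes past the adjusted test, 1833 at the unadjusted p and a median over all genes of 0.036. The 2 genes of the liver minus brain test also passed with the mouse as a replicate block. Without 1 mouse that count was 0 to 1.

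Signs were compared across settings for 101 of the genes named. Alb, Ttr, Hnf4a, Adipoq, S100a9, Krt19, Moxd1 and Serpina1e were not among them. Names not moved and the turned sign of the Cy3 arrays were left out of that comparison. Among the 101 genes, signs turned only within 1 dye. With HdhQ111 RNA in Cy5 the values were -0.10 for Nudt13, 0.007 for Igfbp4, 0.14 for Serpina1b, 0.078 for Rgn, 0.043 for Sod1, -0.14 for Pmvk, 0.00495 for Ppara, -1.02 for S100a8, 0.047 for Scp2 and 0.0033 for Car3. In Cy3 they were -0.24 for Cpt1c, -0.089 for Lancl2, -0.039 for Stat5b and -0.22 for Cldn4, over all arrays with a value. All 31 lists with a median below -0.1 stayed below 0 without each mouse, after centring and after scaling the arrays. With every Cy5 array value used, whether or not its swapped partner had one, 7 of them did (8 over complete pairs), and with names not moved 23 did, where the male-biased median was -0.063.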
